A study of Mus musculus with 8 samples.

Results

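mmu-miR-146a-5p and mmu-miR-146b-5p (here miR-146a-5p and miR-146b-5p) are the mature microRNAs of the mouse miR-146 family, and both were measured in kidneys of mice treated with tacrolimus, a calcineurin inhibitor given against transplant rejection whose main limit is damage to the kidney. The members were found by name among the mouse microRNAs (miRNAs) of the array, with every probe that carries them. They are 2 of 1023 mouse miRNA names and 4 of 2645 probes. Total kidney RNA of CD-1 mice, an outbred stock, was hybridised to single-colour Agilent arrays. The 4 control samples came from mice given physiological serum, and the 4 treated samples from mice that received tacrolimus for 28 days at a daily dose of 1 mg per kg. Whether the 4 replicates of a group are 4 mice is not stated in the labels. The p-values below therefore reflect the scatter among the samples alone, part of which may be technical. The sources used here name no mutant allele, transgene or injury other than the drug.

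The miR-146 family is known as a brake on innate immune signalling. Transcription of miR-146a is switched on by NF-kappaB downstream of Toll-like and interleukin-1 receptors, and the mature miRNA represses the mRNAs of the adaptor proteins TRAF6 and IRAK1 that lead to NF-kappaB, which closes a negative feedback loop. miR-146b comes from another gene and carries the same seed, the stretch that pairs with target mRNAs. In the kidney, miR-146a is known from tubular epithelium and from leukocytes, and it is much studied in models of kidney injury.

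The mature sequences are shown because they set which targets and which probes the 2 miRNAs share. They are RefSeq sequences on GRCm38.p6, 5′ to 3′, with the seed (bases 2 to 8) in capitals.
miR-146a-5p: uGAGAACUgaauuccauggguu
miR-146b-5p: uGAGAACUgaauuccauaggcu
miR-146a-5p lies in the gene Mir146 at chr11:43374435-43374456 on the minus strand. Mir146 overlapped no other gene in the RefSeq table, and the nearest protein-coding genes listed beside it were Atp10b and Pttg1. miR-146b-5p lies in Mir146b at chr19:46342790-46342811 on the plus strand. Mir146b overlapped the lncRNA gene Gm36493, with Cuedc2 the nearest listed gene at lower coordinates. Both mature miRNAs have 22 bases, of which 20 are the same. The differences are G18A and U21C, counted from the 5′ end with the base of miR-146a-5p first, so both lie outside the seed. Among the 1679 mature mouse miRNAs of the RefSeq table, 2 carried this seed, and they were these members. Of the 1023 names on the array 835 matched that table, and again 2 had the seed.

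Each member was read by an 18-base and a 19-base probe, printed as 20 spots each. The probe sequences from the array files are given 5′ to 3′ with capitals at the positions where the probes for the 2 members differ.
miR-146a-5p, 18-base probe: aAccCatggaattcagtt
miR-146a-5p, 19-base probe: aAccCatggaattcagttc
miR-146b-5p, 18-base probe: aGccTatggaattcagtt
miR-146b-5p, 19-base probe: aGccTatggaattcagttc
Every probe was an exact complement of its miRNA. The 18-base probes covered bases 5 to 22 of the mature miRNA and the 19-base probes bases 4 to 22. Probes of equal length differed by A2G and C5T, counted from the probe's 5′ end with the probe for miR-146a-5p first. How far either miRNA binds the other's probe was not tested.

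All 8 arrays lay on 1 slide with 1 scan, controls in its first row and tacrolimus in its second, with the replicate number as the slide column, so the effect of the row cannot be told apart from that of the drug. Signals are log2 intensities with a reference level subtracted, the array's 75th percentile over 252 probes that were detected throughout, so that 0 is a bright miRNA and -5.96 is the floor under which values were set equal. A probe was called detected on an array where a share of 0.5 or more of the spots kept for it stood well above background. Between 147 and 217 miRNAs were detected per array. The fewest were on tacrolimus 4, whose negative control spots had the widest spread (SD 20.3 intensity units), followed by control 3 with 157. Tacrolimus 4 was also the only array whose additive error, the software's estimate of background noise, was marked out of range (18.5). The other 6 arrays had 184 to 217. Kidney tubule miRNAs were detected in both groups. The summed level of the 6 tested of 7 listed, which the brightest of them dominate, ran from 3.80 to 3.91 on control arrays and from 3.81 to 3.90 on tacrolimus arrays, and miR-215-5p of that list was detected on 0 arrays. None of the 6 passed the adjusted threshold in limma (0 of 6, with 1 at an unadjusted p under 0.05). That one was the dimmer miR-204-5p, with a difference of 0.34 (95% interval 0.02 to 0.66, adjusted p = 0.289 in limma). Of 4 miRNAs of other tissues, miR-122-5p (liver), miR-124-3p (neural) and miR-133a-3p (striated muscle) were detected on 0 arrays and miR-1a-3p (striated muscle) on 2 tacrolimus arrays.

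miR-146a-5p was a clearly detected miRNA of middling abundance in these kidneys. After scaling, 3 of the 4 tacrolimus samples had more of it than any control. On its brighter, 19-base probe the controls measured -2.81, -2.87, -2.96 and -2.86 (log2 signal, controls 1 to 4). The tacrolimus samples measured -2.40, -2.30, -2.61 and -2.92. The controls were close together, while the treated samples were spread out, and tacrolimus 4 lay inside the control range, so the groups overlap.

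The group means of that probe were -2.87 ± 0.06 (SD, n = 4) in controls and -2.56 ± 0.27 (SD, n = 4) with tacrolimus. The log2 difference was 0.32 (SE 0.126, 95% interval 0.04 to 0.60), or 1.25-fold. It did not pass the threshold of 0.05, with an unadjusted p of 0.0315 and an adjusted p of 0.273 in limma over the 194 miRNAs tested. An exact two-sided permutation test over the 8 arrays gave p = 0.114, where 0.0286 is the smallest this design allows. In bulk kidney RNA, more cells that carry a miRNA and more of it per cell cannot be told apart.

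Across the 194 tested miRNAs, 6 passed the adjusted threshold, all higher with tacrolimus (3.09%). With scaling to the median of detected probes 6 were higher and 2 lower, and with quantile normalization 6 were higher and 1 lower. No miRNA passed (0 of 194) with the 75th percentile over all probes, without scaling, with the mean of detected probes, with a floor 2 times as high, with trend and robust moderation or with the slide column as a block. The count was 0 without control 1, control 2, tacrolimus 1 or tacrolimus 4. It was 1 without control 3 (0 higher) and 2 without control 4 (0 higher). Without tacrolimus 2 it was 2 (1 higher), and without tacrolimus 3 it was 7 (6 higher). An unadjusted p under 0.05 with a higher level under tacrolimus was seen for 21 (10.8%), and miR-146a-5p was the 21st of 194 by p over both directions. The median difference of all tested miRNAs was 0.04, and 115 (59.3%) were above 0. A difference in the same direction and at least as large as that of miR-146a-5p was measured for 17 miRNAs (8.76%), itself included. By its mean signal in controls it ranked 95 of 194, at 13.6% of the reference percentile.

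**Figure D1:**
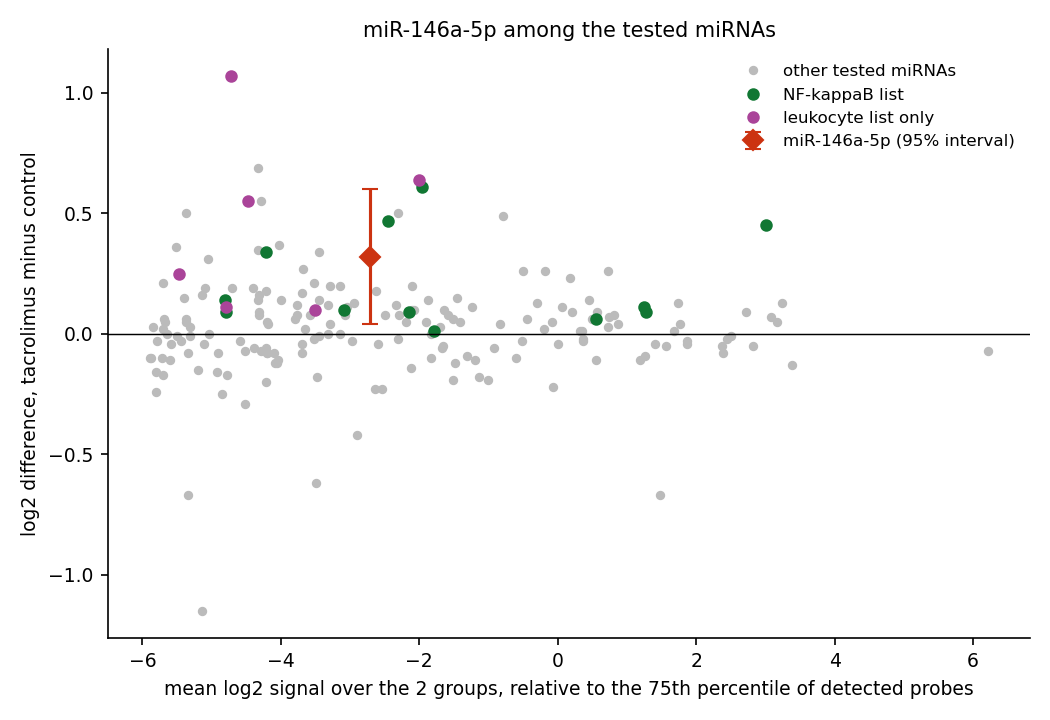
Log2 difference (tacrolimus minus control) of each of the 194 tested miRNAs against its mean log2 signal over the groups. miR-146a-5p (red diamond, bar: 95% interval from limma) sits at 0.32 with a lower bound of 0.04, near the middle of the signal range, and the NF-kappaB and leukocyte lists are shown in green and purple.

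The spots of the 19-base probe of miR-146a-5p agreed closely within each array. Of 20 spots, 16 to 20 were kept per array, all of them well above background, with a coefficient of variation of 2.65% to 8.24%. Unscaled mean intensities were 360, 261, 184 and 240 on the controls. They were 424, 462, 270 and 293 on the tacrolimus arrays. Before scaling, tacrolimus 3 (270) and tacrolimus 4 (293) thus lay under control 1 (360) and above the other controls. Spots repeat 1 hybridisation and are not replicates of a treatment.

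**Figure D2:**
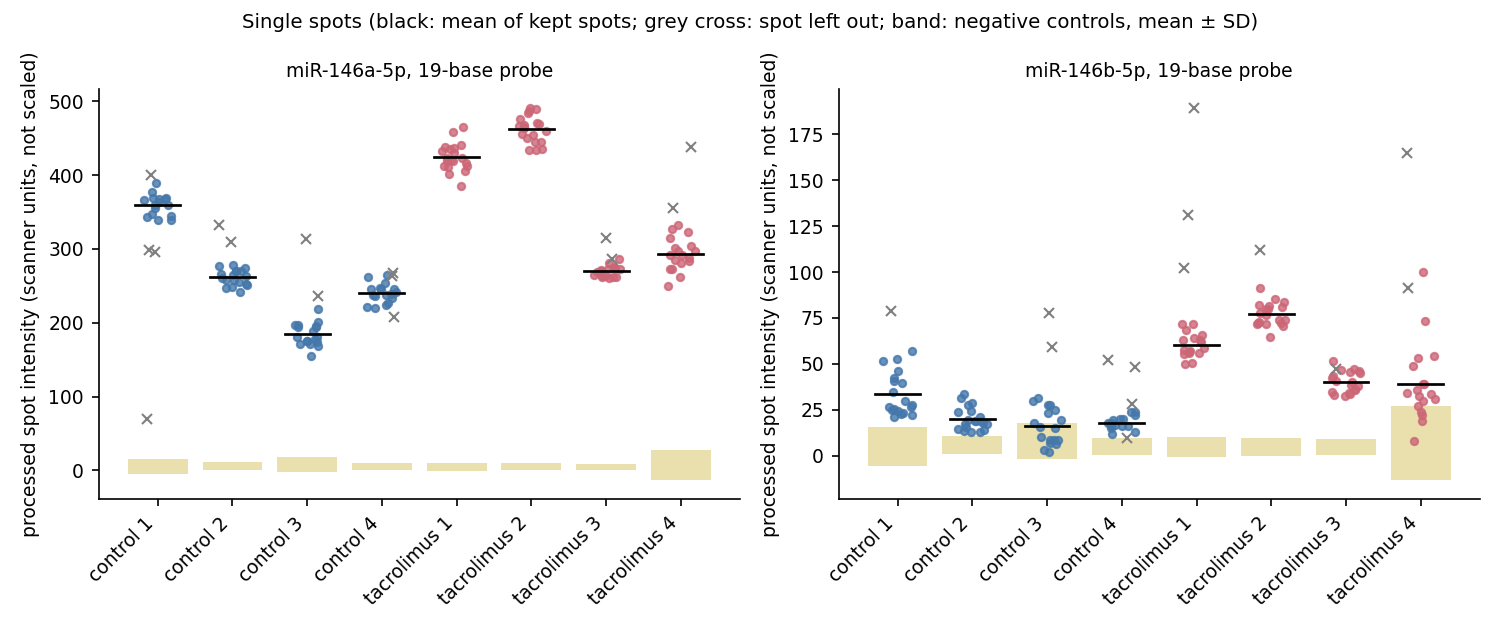
Unscaled processed intensity of every spot of the 19-base probes by array, with grey crosses for spots left out and a band for the negative controls (mean ± SD). The spots of miR-146a-5p lie far above the band on all 8 arrays. Those of miR-146b-5p average 40.2 to 76.9 on tacrolimus 1 to 3, 39.1 on tacrolimus 4 and 15.9 to 33.7 on the controls.

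The 18-base probe of miR-146a-5p was much dimmer and gave a difference of the same sign. Its log2 signals were -5.42, -5.38, -5.47 and -5.31 on the controls, a mean of -5.40 ± 0.06 (SD, n = 4). They were -4.93, -4.79, -5.03 and -5.27 on the tacrolimus arrays, a mean of -5.01 ± 0.20 (SD, n = 4). Every tacrolimus array was above every control, although on control 3 and tacrolimus 4 this probe was not well above background.

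In the fit over 357 probes the 18-base probe differed by 0.39 (SE 0.101, 95% interval 0.16 to 0.62), or 1.31-fold. Its unadjusted p was 0.00364 and its adjusted p 0.0999 in limma, which misses the threshold. In that fit the 19-base probe differed by 0.32 with an adjusted p of 0.276. No probe passed there (0 of 357, against 53 at an unadjusted p under 0.05), and 24 probes (6.72%) had every tacrolimus array above every control. With the normexp background correction the difference of the 18-base probe was 0.06 (SE 0.0868). That setting adds an offset of 50 intensity units, which by itself narrows the log2 differences of dim probes such as this one. The 18-base signal was 16.4%, 17.6%, 17.6% and 18.2% of the 19-base signal on the controls and 17.3%, 17.7%, 18.7% and 19.5% on the tacrolimus arrays, so the probes kept nearly the same ratio to each other.

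miR-146b-5p was close to the background of the assay. By the rule on spots above, its 19-base probe was detected on 3 of 4 arrays of treated kidneys and on 0 of 4 controls, while the software's own call adds 1 control. Its 19-base probe had 1 of 19, 2 of 20, 0 of 18 and 0 of 16 kept spots well above background on controls 1 to 4. On tacrolimus 1, 2 and 3 the counts were 17 of 17, 19 of 19 and 19 of 19. On tacrolimus 4 the count was 1 of 18. By this count tacrolimus 4 stood with the controls, although its log2 signal without the floor (-5.82) was above theirs (-6.60 to -6.23).

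Mean intensities of this probe were 33.7, 20.1, 15.9 and 17.9 units on the controls. They were 60.4, 76.9, 40.2 and 39.1 units on the tacrolimus arrays. Measured from the mean of each array's negative controls, in units of their SD, the signal was 2.73, 2.87, 0.813 and 2.66 on the controls. It was 10.2, 14.7 and 8.00 on tacrolimus 1 to 3, and 1.59 on tacrolimus 4. The intensity on tacrolimus 4 was thus above every control in scanner units but within the control range once set against that array's wider background.

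On the log2 scale all 4 controls were at the floor of -5.96, and the tacrolimus arrays were at -5.21, -4.88, -5.36 and -5.82, a mean of -5.32 ± 0.39 (SD, n = 4). Since the controls have no measured level, only a bound can be given. Each control was set to the lowest signal among probes well above background on that array, or to the probe's own signal where that was higher, which gave a mean of -5.57. Against this bound the mean of the 4 tacrolimus arrays, of which 3 measured the miRNA, was 1.19-fold higher. Tacrolimus 4 entered at its own undetected signal (-5.82), so this value is a bound with respect to the controls only. Without tacrolimus 4 the mean was at least 1.34-fold higher. Leaving out each array in turn gave values of 1.07-fold to 1.41-fold. Without the floor, the means were -6.47 ± 0.17 (SD, n = 4) in controls and -5.32 ± 0.39 (SD, n = 4) with tacrolimus.

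How low a signal could be detected differed between arrays. The lowest signal of a detected probe was -5.52, -6.02, -4.84 and -5.90 on controls 1 to 4 and -6.10, -6.39, -6.14 and -4.64 on the tacrolimus arrays. The levels of miR-146b-5p on tacrolimus 1 to 3 (-5.36 to -4.88) were above the lowest detected signal of controls 1, 2 and 4 and under that of control 3. On control 3 and tacrolimus 4, a level such as that of tacrolimus 1 to 3 could not be told from background.

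miR-146b-5p did not meet the filter for the test, which asked for detection on 4 of 8 arrays, so it has no adjusted p in the fit of 194 miRNAs. In a fit of all 1023 miRNAs without a filter, the difference of floored values was 0.64 (SE 0.194), with an unadjusted p of 0.0158 and an adjusted p of 0.393 in limma. The pattern of detection on 0 controls and at least 3 tacrolimus arrays was seen for 3 of 1023 miRNAs (0.293%). Beside miR-146b-5p these were miR-3072-5p and miR-34c-5p, a miRNA of the p53 response, and none of the 3 was detected on tacrolimus 4. The reverse pattern was seen for 0 of 1023 miRNAs. It requires no detection on tacrolimus 1 to 3, the arrays that detected the lowest signals and the most miRNAs (209, 217 and 201). The counts for the forward and the reverse pattern are therefore not on an equal footing.

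The software's own call per miRNA, which combines both probes, listed miR-146b-5p as detected on 1 control (control 2) and on tacrolimus 1, 2 and 3. Its total gene signal was 7.83 units on control 2, and 23.4, 30.0 and 15.7 units on those tacrolimus arrays. The other 4 arrays carry the table's minimum of 0.1. A call on at most 1 control and at least 3 tacrolimus arrays was made for 9 of 1023 miRNAs (0.88%). By contrast, the same software called miR-146a-5p on all 8 arrays. The 18-base probe of miR-146b-5p was detected on 0 of 8 arrays, with mean intensities of 0.689 to 11.8 units.

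**Figure D3:**
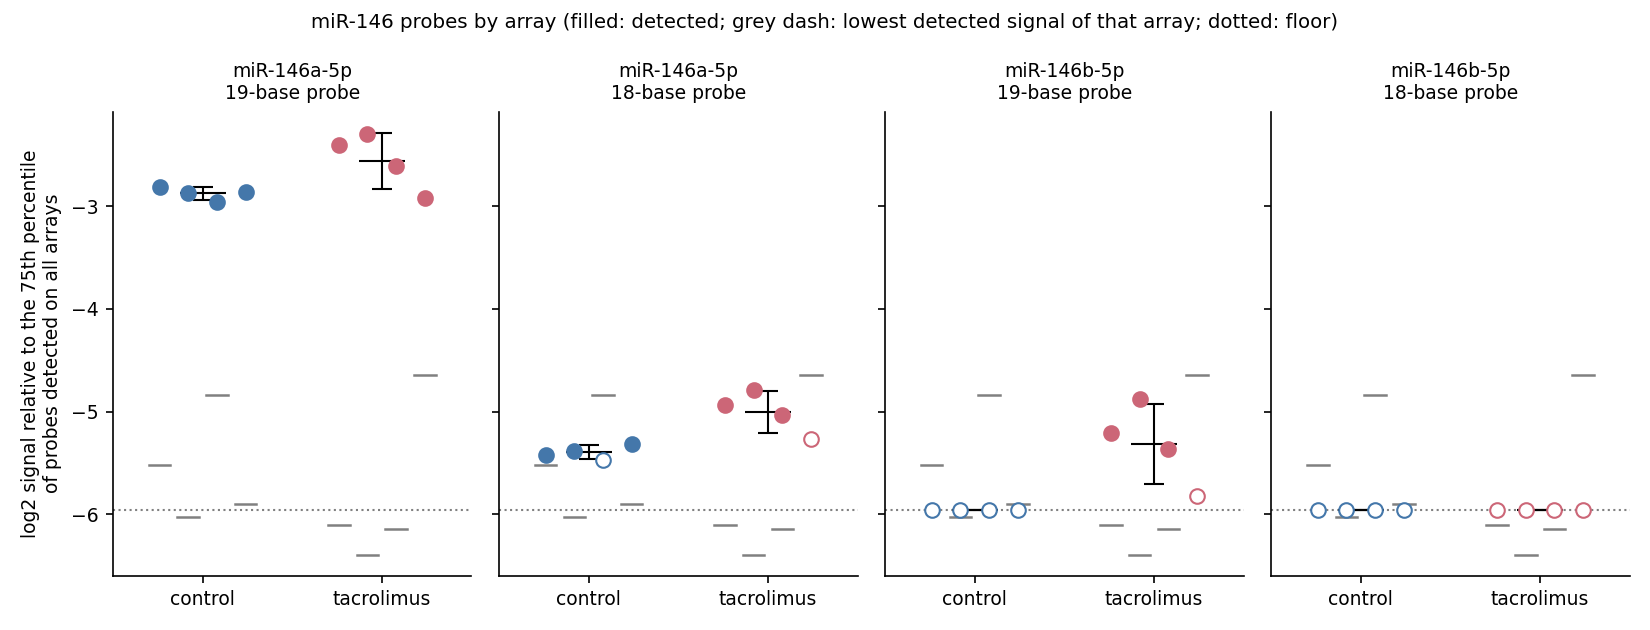
Log2 signal of the 4 probes on each array (control 1 to 4, then tacrolimus 1 to 4, left to right), with group mean and SD. Filled points are detected, the grey dash is the lowest detected signal of that array and the dotted line is the floor at -5.96: the 19-base probe of miR-146a-5p is detected on all 8 arrays and that of miR-146b-5p on tacrolimus 1, 2 and 3.

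The passenger arms of both hairpins, miR-146a-3p and miR-146b-3p, were at background. miR-146a-3p had 2 probes and miR-146b-3p had 4, and each was detected on 0 of 8 arrays and stood at the floor throughout. The software likewise called both on 0 arrays.

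miRNAs that NF-kappaB is known to induce, or that act on innate immune signalling, were then set beside the members. Of 16 listed, 12 were tested. All 12 differences were above 0, as were 59.3% of all tested miRNAs, but 10 of 12 were with scaling to the median of detected probes (40.2% of all) and 9 of 12 with quantile normalization (46.9% of all). The list's median difference was 0.11, against 0.04 for all tested miRNAs, and 1 of 12 passed the adjusted threshold. An unadjusted p under 0.05 was found for 3 of the 12 and for 30 of all 194.

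The miRNA that passed was miR-199a-5p, which is known to repress the NF-kappaB activating kinase IKK-beta. It measured -2.54, -2.75, -2.60 and -2.86 on the controls and -2.22, -2.04, -2.45 and -2.15 with tacrolimus. Every treated sample was above every control, as for 16 of all 194 miRNAs (8.25%). Its difference was 0.47 (SE 0.106, adjusted p = 0.0476, limma), and it is among the 6 calls. The count of miRNAs called higher fell to 0 without any single control, without tacrolimus 1 or without tacrolimus 4. It was also 0 with normexp and with the slide column as a block, and 1 without tacrolimus 2.

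Next by p came miR-223-3p, a miRNA of myeloid cells, with a difference of 0.61 and an adjusted p of 0.0911 in limma. miR-21a-5p, which is widely induced in injured and fibrotic tissue, differed by 0.45 (adjusted p = 0.104). Its controls ran from 2.52 to 2.96 and its treated samples from 3.04 to 3.47, with no overlap. miR-125b-5p, which represses TNF mRNA, differed by 0.11 (adjusted p = 0.475).

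miR-155-5p, the other classic NF-kappaB induced miRNA of macrophages, was chosen after its values were seen. It measured -3.78, -4.78, -4.67 and -4.33 on the controls and -3.96, -4.71, -3.29 and -4.22 with tacrolimus. The groups were mixed, and its difference of 0.34 had a wide interval (-0.34 to 1.03, adjusted p = 0.646 in limma). miR-147-3p, miR-187-3p and miR-9-5p of the list were detected on 0 arrays, and miR-31-5p on 2 tacrolimus arrays.

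**Figure D4:**
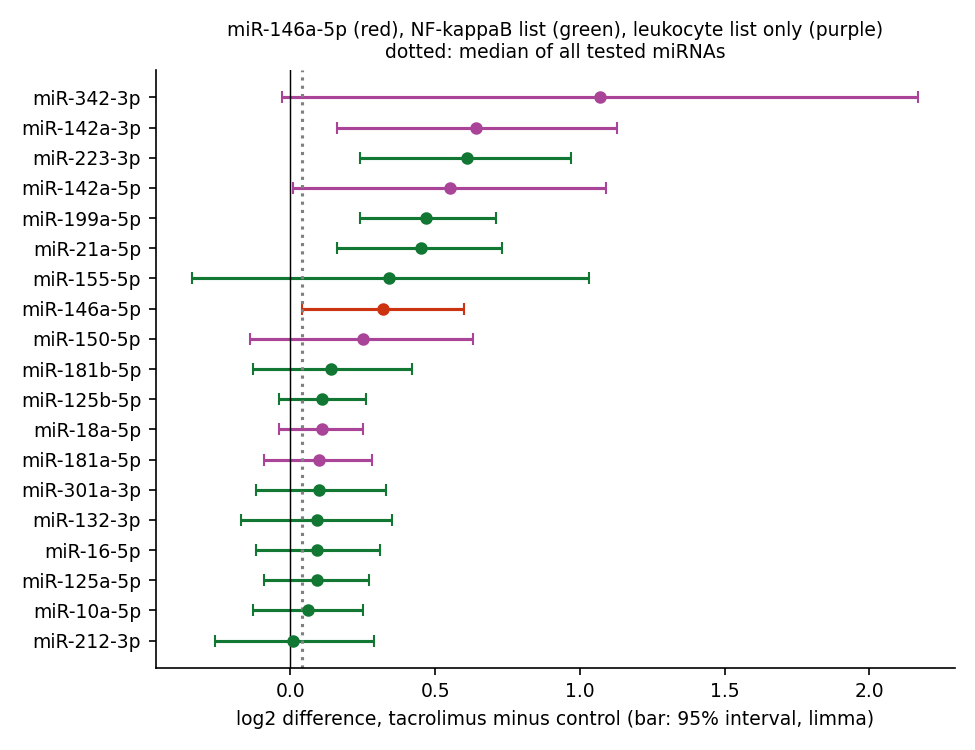
Log2 difference (tacrolimus minus control, bar: 95% interval from limma) of miR-146a-5p in red, the 12 tested miRNAs of the NF-kappaB list in green and the leukocyte miRNAs outside it in purple, with the median of all tested miRNAs (0.04) dotted. Of these, miR-199a-5p (0.47) passed the adjusted threshold, and with scaling to the median of detected probes or quantile normalization 2 or 3 of the 12 differences of the NF-kappaB list were not above 0.

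Since miR-146a-5p is also a miRNA of leukocytes, leukocyte miRNAs were read in the same samples. All 9 listed were tested and all 9 differences were above 0, under every scaling tried, with a median of 0.34 against 0.04 for all tested miRNAs. Of all tested miRNAs 59.3% were above 0, and 40.2% to 88.1% under the other scalings, the highest share being that without scaling. Their summed level ran from -0.69 to -0.17 on controls and from -0.18 to 0.24 on tacrolimus arrays, so the ranges overlap by a narrow margin. None passed the adjusted threshold in limma (0 of 9, with 3 at an unadjusted p under 0.05, against 30 of all 194). Every one was detected on some array. Their part in the level of miR-146a-5p or miR-146b-5p was not tested.

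Among them miR-142a-3p, which is specific to blood cells, measured -1.78, -2.17, -2.66 and -2.69 on the controls. With tacrolimus it measured -1.54, -1.39, -1.79 and -2.00. Only tacrolimus 4 and, by a little, tacrolimus 3 lay under the highest control, and the difference was 0.64 (adjusted p = 0.191, limma). The other arm, miR-142a-5p, differed by 0.55 (adjusted p = 0.301). miR-342-3p, known from lymphocytes, differed by 1.07 with a wide interval (-0.03 to 2.17, adjusted p = 0.347). It was detected on 3 controls and 3 tacrolimus arrays. The miRNAs miR-223-3p and miR-155-5p, given above, and miR-181b-5p are on both lists. miRNAs of red blood cells ran the other way. The 3 tested of 4 listed had a median difference of -0.67, none passed the adjusted threshold in limma (0 of 3, with 3 at an unadjusted p under 0.05), and their summed level was 1.07 to 2.54 on controls and 0.91 to 1.32 with tacrolimus.

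The tested miRNAs whose pattern over the 8 arrays was most like that of miR-146a-5p were miR-1949, miR-342-3p and miR-340-5p. Pearson's r was 0.90 for miR-1949, 0.884 for miR-342-3p and 0.869 for miR-340-5p, and Spearman's rho was 0.738, 0.976 and 0.952. The median r of all 193 other tested miRNAs was 0.0935. These are descriptions over 8 arrays that share a slide and a scaling step, with no test. After each group's mean was subtracted r was 0.838, 0.816 and 0.853. Without tacrolimus 1 and 2, the arrays farthest from the median of miR-146a-5p, r was 0.633, 0.838 and 0.856.

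The 3 profiles were of different size. miR-1949 measured -4.46, -4.70, -4.46 and -4.62 on controls and -3.95, -3.72, -4.07 and -4.30 with tacrolimus, with no overlap (difference 0.55, adjusted p = 0.0476 in limma, another of the 6 calls). miR-342-3p measured -4.37, -5.91, -5.96 and -4.75 on controls and -3.70, -3.53, -4.03 and -5.47 with tacrolimus. Its value on tacrolimus 4 was among the controls, as was that of miR-146a-5p. Unlike miR-146a-5p, however, miR-342-3p was not detected on control 3 or tacrolimus 4. These undetected values enter its r, rho and difference. miR-340-5p differed by 0.09 (adjusted p = 0.643), with controls from -4.42 to -4.25 and treated samples from -4.46 to -4.20.

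The difference of miR-146a-5p kept its sign under all 24 other settings tried, from 0.21 to 0.47, and passed the adjusted threshold in none of them, with adjusted p from 0.155 to 0.995 in limma. Without tacrolimus 4 it was 0.33 (SE 0.0882), with an unadjusted p of 0.00608 and an adjusted p of 0.157. Without scaling the median of all miRNAs was 0.19, and the 0.47 of miR-146a-5p is to be read against that. The total gene signal and the authors' value table hold the same values but count as separate settings here.

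**Figure D5:**
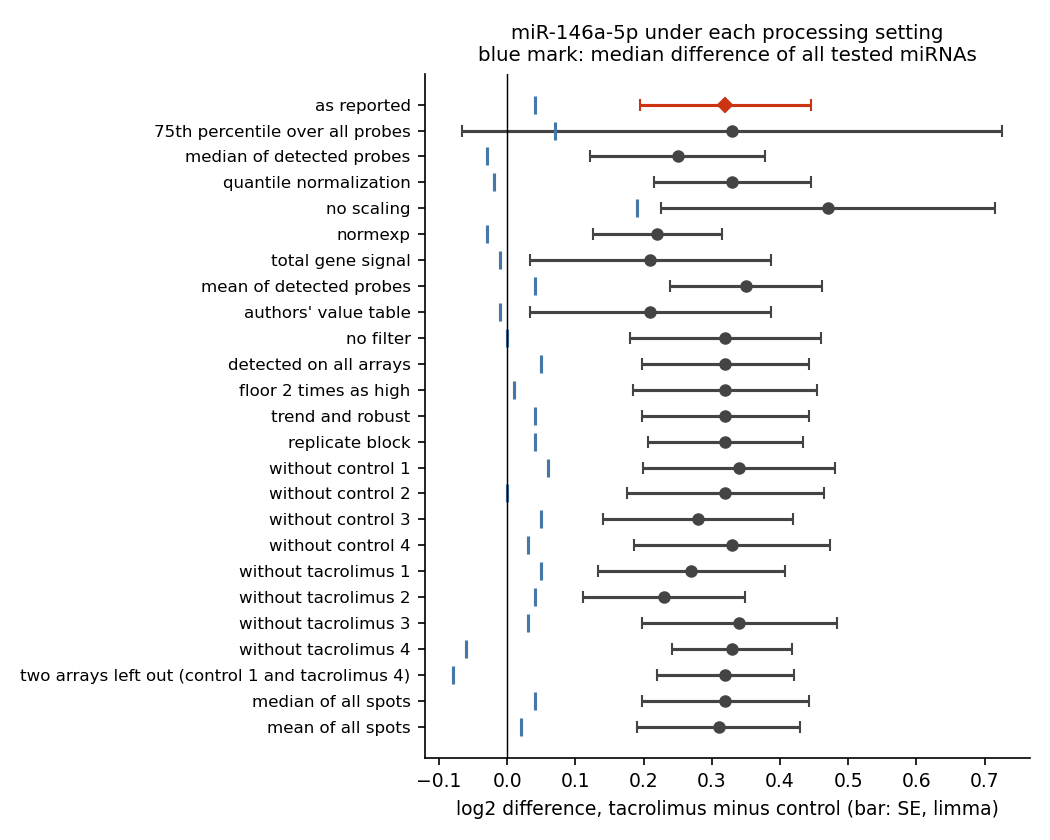
Log2 difference of miR-146a-5p (tacrolimus minus control, bar: SE from limma) as reported (red, 0.32) and under the 24 other settings, with the median of all tested miRNAs as a blue mark. All estimates lie between 0.21 and 0.47 and above the median of their setting.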

How the data were processed

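The authors deposited the output of Agilent Feature Extraction 10.7.3.1 for each array, per the file headers; its values are linear spot intensities with local background subtracted, not scaled between arrays. The deposited value table equalled that software's total gene signal, an intensity, in 100% of cells (tolerance 1e-06). The tool limma is named in the submitters' processing notes without a role. The labels' labelling kit is made for mRNA, and the labelling chemistry for miRNA is not stated in the sources used here.

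From the deposited intensities, spots that the software flagged (between 7.36% and 11.2% of the 40920 miRNA spots of an array) were omitted, as were control spots and 57 viral names; 0 spots were saturated. Each probe's kept spots were averaged, divided by the array's 75th percentile over the 252 probes detected on all 8 arrays, floored at -5.96, the median of the arrays' lowest detected signals, and taken as log2. The brightest probe stood for each miRNA, and 194 miRNAs detected on at least 4 arrays were tested, which put 829 aside. Groups of 4 were compared with limma 3.58.1 in R 4.3.3 (two-sided, no covariate, 9.17 degrees of freedom, Benjamini-Hochberg over all tested, threshold 0.05). The script was tested on simulated data. Precision is limited by the number of arrays.

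The members and lists were chosen with earlier results of these data known. Named were both members with every probe, the 3p arms by detection, listed NF-kappaB miRNAs past the threshold or else the 4 of smallest p, the 4 leukocyte miRNAs of smallest p, and the 3 miRNAs most correlated with each tested member.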

Additional observations from a re-analysis of the deposited data

How the results depend on the processing

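The 24 alternatives count the total gene signal and the authors' value table separately, although these hold the same values. Under all 24 the difference of miR-146a-5p (0.32) kept its direction and stayed short of the adjusted threshold. Its unadjusted p in limma was under 0.05 in 12 of them. Leaving out each array in turn gave 0.23 to 0.34, with adjusted p of 0.157 to 0.474. The floored difference of miR-146b-5p (0.64), which was mostly not tested, moved to 0.08 with normexp, to 0.02 with a floor 2 times as high, and to 1.46 with the total gene signal and with the authors' value table (adjusted p = 0.418 over 226 miRNAs in limma); leaving out each array gave 0.44 to 0.71. Its size depends on where the floor lies and, with normexp, on the offset of 50 intensity units which that setting adds. The count of 6 called miRNAs, all higher, was 1 with normexp, where 0 were higher. It was 0 with the 75th percentile over all probes, no scaling, total gene signal, the mean of detected probes or the authors' value table. It was also 0 with no filter, the higher floor, trend and robust moderation or the replicate block (the slide column). Among settings chosen after seeing the data, it was 0 without control 1 and tacrolimus 4 together and with the median or mean of all spots. In those fits with a count of 0, 2 to 37 miRNAs had an unadjusted p under 0.05. Leaving out each array in turn gave 0 to 7 calls, and the calls left without control 3 or control 4 included 0 higher. With scaling to the median 8 were called (6 higher), with quantile normalization 7 (6 higher), so that the split is then not one-sided. Same-numbered samples deviated together weakly (correlations of 0.109, 0.14, 0.112 and 0.0946) and share a slide column. Not every correlation was over 0.1, so the replicate numbers were not taken to pair them. With the replicate block miR-146a-5p differed by 0.32 (adjusted p = 0.249 in limma), and only tacrolimus 2 correlated best with its own number. The 19-base probe of miR-146b-5p was not well above background on 5 of 8 arrays, which leaves a bound in place of a control level.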

Other observations

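The signal of miR-146b-5p was also set against that of miR-146a-5p on the same array, a ratio chosen after the values were seen and given without a test. On the 19-base probes it was 9.36%, 7.70%, 8.62% and 7.44% on controls 1 to 4 and 14.2%, 16.6%, 14.9% and 13.3% on tacrolimus 1 to 4. All 4 tacrolimus arrays, tacrolimus 4 included, were above all controls. The control values of miR-146b-5p behind the ratio were not well above background, nor was that of tacrolimus 4, and probes of different sequence bind with different strength, so the ratio is not one of abundances.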
